A study of Mus musculus with 4 samples.

Results

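The genes described here are 8 caspases and death effectors, namely the inflammatory caspase genes Casp1, Casp4 and Casp12, the death receptor gene Fas with Casp8 and Bid downstream of it, and the pore-forming effector genes Gsdmd and Mlkl. They were taken as all probes, other than controls, whose transcript accession belongs to 1 of these symbols in RefSeq. This gave 9 probes for 8 of the 19751 genes with a named probe, with 2 probes for Casp4 and 1 for each of the other 7 genes. Expression was measured in the mouse myoblast line C2C12, whose cells fuse into myotubes when serum is lowered, on day 3 of differentiation. Treated cells received interferon-gamma (IFN-γ) at 1 ng/ml, and control cells were differentiated without it. Both were unmodified C2C12 cells, and the labels give their horse serum as 2% in 1 field and 10% in another. Each of 4 two-channel Agilent arrays had treated RNA labelled with Cy5 and control RNA with Cy3, and the 4 treated samples are labelled biological replicates. Separate cultures are not stated for the control RNA, so the p-values cover the spread among the 4 arrays, which may in part be technical. No array had the dyes exchanged, so a dye effect of a probe and the treatment cannot be told apart.

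Inflammatory caspases act in the innate response to microbes and danger signals. Caspase-1 is activated in inflammasomes, where it matures interleukin-1β and interleukin-18 and cuts gasdermin D, whose released fragment forms pores in the plasma membrane and kills the cell by pyroptosis. The product of mouse Casp4 senses cytosolic lipopolysaccharide and also cuts gasdermin D. Fas is a death receptor that recruits caspase-8, which cuts executioner caspases directly and cuts Bid to carry the signal to mitochondria. When caspase-8 is blocked, death receptors and nucleic acid sensors can instead engage the kinase RIPK3, which phosphorylates MLKL, the membrane-disrupting effector of necroptosis. The caspases, gasdermin D, Bid and MLKL are each made as an inactive form. For none of these genes, Fas included, is the RNA level a measure of cell death.

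The promoters of Casp1, Fas and Casp12 are shown because Casp1 had the largest ratio of the 8 genes, and because Fas and Casp12 were the 2 genes with a match to the letters searched. The window was the 250 bases before an annotated start site, from RefSeq on build GRCm38.p6, and 7 of the 8 genes had an entry. For Casp12, Fas, Casp8, Bid and Mlkl the window overlapped the RefSeq gene, so its start site was not the outermost of the gene. Casp4 had 2 windows, and the second of these also overlapped its gene. Other starts of these genes were not searched. Matches were sought on both strands to TTCNNNGAA, the gamma-activated sequence of IFN-γ-responsive promoters, and to GAAANNGAAA, the core of the interferon-stimulated response element. The first was found in 2 of the 7 genes, against 8.13% of all genes with an entry and 7.01% of all 32817 promoter windows. The second was found in 0 of the 7 genes, against 3.46% of all genes and 2.97% of the windows. Casp12 had 2 matches, starting at positions −102 and −36 relative to the start site, and Fas had 1, at −93. All 3 matches read TTCTGGGAA, which occurs on either strand in 1.1% of the windows. The Casp1 window is chr9:5298267-5298516, the Casp12 window is chr9:5345226-5345475 and the Fas window is chr19:34290409-34290658, all on the plus strand, and capitals mark the matches.
Casp1: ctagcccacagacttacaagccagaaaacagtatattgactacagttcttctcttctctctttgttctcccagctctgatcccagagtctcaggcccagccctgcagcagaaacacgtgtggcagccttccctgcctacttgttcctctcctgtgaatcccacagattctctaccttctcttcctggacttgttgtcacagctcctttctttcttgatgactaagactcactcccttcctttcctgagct
Casp12: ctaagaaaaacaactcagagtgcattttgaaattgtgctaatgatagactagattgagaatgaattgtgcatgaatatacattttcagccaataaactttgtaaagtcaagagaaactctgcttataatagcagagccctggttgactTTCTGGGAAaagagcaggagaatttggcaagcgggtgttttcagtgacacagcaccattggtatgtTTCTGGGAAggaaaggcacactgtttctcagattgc
Fas: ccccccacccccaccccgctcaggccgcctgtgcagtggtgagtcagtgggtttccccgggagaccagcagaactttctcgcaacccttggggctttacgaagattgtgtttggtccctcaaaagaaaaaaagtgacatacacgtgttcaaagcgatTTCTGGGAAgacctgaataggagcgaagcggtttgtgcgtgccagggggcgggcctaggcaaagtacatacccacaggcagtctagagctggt

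The arrays were alike in their local background and differed in brightness. Median intensity over all probes lay between 79.8 and 97 in Cy3 and between 149.5 and 264 in Cy5. Between 22453 and 25905 probes were well above background in Cy3, and between 28548 and 30148 in Cy5. Pairwise correlations of the log2 ratios lay between 0.85 and 0.89 among replicates 1, 3 and 4 and between 0.54 and 0.66 for pairs with replicate 2. The values of each array are given below for the 8 genes. Interferon response genes outside the 8 checked the labels. Irf1 rose by 2.74 ± 0.20 (log2 ratio of treated over control, SD, n = 4), Gbp2 by 3.68 ± 0.40 and Psmb9 by 4.55 ± 0.22. The second probe of Irf1 had 0.29.

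All 8 caspase and effector genes were higher in treated than in control cells, on every probe and on every array. Casp1 rose most, by 4.32-fold, and Bid, Gsdmd and Casp8 each rose by slightly more than 2-fold. Mlkl rose by 1.91-fold and Fas by 1.77-fold, and the smallest rises were those of Casp4 and Casp12. In the limma fit over 28921 tested probes, 9 of 9 probes were called higher at a Benjamini-Hochberg adjusted p under 0.05, against 16.5% of all tested probes. A rise of at least 2-fold was called for 4 of the 9 probes, against 1.45% of all tested probes. The genes were assembled with earlier results of these arrays known, so these shares describe them and are no independent support for a group effect.

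**Figure D1:**
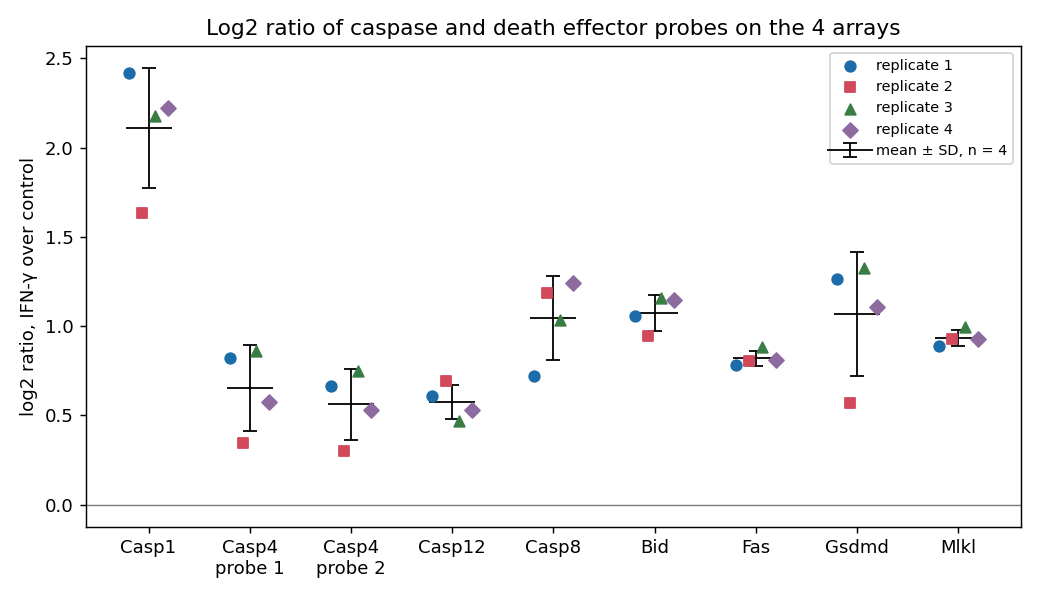
Log2 ratio of IFN-γ over control (vertical axis) for the 9 probes (horizontal axis), with 1 marker per array and the mean ± SD over 4 arrays. All values lie above 0, from 0.30 for the second Casp4 probe on replicate 2 to 2.42 for Casp1 on replicate 1.

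Of the inflammatory caspases, Casp1, which encodes the inflammasome protease, rose by 4.32-fold, Casp4 by 1.57-fold and Casp12 by 1.49-fold. Before normalisation the Casp1 spot had median intensities of 370, 335, 276.5 and 339 in Cy3 and of 7393, 3222.5, 8377.5 and 6810 in Cy5 on replicates 1 to 4. After normalisation its log2 ratios were 2.42, 1.63, 2.18 and 2.22. The channels did not overlap, and the ratio was lowest on replicate 2. There the Cy5 signal was the lowest of the 4 and the Cy3 signal lay within the range of the others. The Cy5 median over all probes, 149.5, was also lowest on replicate 2. The ratios were taken after normalisation within each array, and the cause of the low Casp1 ratio there was not tested. The mean ratio was 2.11 ± 0.34 (SD, n = 4; limma adjusted p = 0.000524), with a 95% interval of 3.45-fold to 5.41-fold. Its rank was 172 among the 28921 tested probes.

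Casp4, the sensor caspase that RefSeq also lists as Casp11, was measured by 2 probes. The first, used where genes are counted, had log2 ratios of 0.82, 0.35, 0.86 and 0.58 on replicates 1 to 4, and the second had 0.66, 0.30, 0.75 and 0.53. Both were lowest on replicate 2 and highest on replicate 3, and they differed from each other by at most 0.16 on any array. The means were 0.65 ± 0.24 and 0.56 ± 0.20 (SD, n = 4), with limma adjusted p of 0.00814 and 0.00848. Without replicate 3 the second probe had a ratio of 0.50 and no longer passed (adjusted p = 0.0509), while the first had 0.58 with an adjusted p of 0.0493.

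Casp12, a caspase associated with the endoplasmic reticulum, rose by a similar amount on all 4 arrays. Its Cy3 medians were 200, 159, 154 and 202 over a local background of 33 to 43, and its Cy5 medians were 983, 714, 1095 and 1081.5. The log2 ratios were 0.61, 0.69, 0.47 and 0.53, so replicate 2 was here the highest array and replicate 3 the lowest. The mean was 0.57 ± 0.096 (SD, n = 4; limma adjusted p = 0.00346), a 1.49-fold rise.

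Casp1, Casp4 and Casp12 follow each other on chromosome 9 with no other protein-coding gene of RefSeq between them. The next such gene after Casp12, Pdgfd, which encodes a platelet-derived growth factor, rose by 0.26 ± 0.058 (limma adjusted p = 0.0238), and Ddi1 beyond it was not tested. On the other side Gria4 had 0.11 ± 0.11, Msantd4 0.14 ± 0.072 and Kbtbd3 0.071 ± 0.088, and none of these 3 passed the test.

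Gsdmd, which encodes the pore-forming target of the inflammatory caspases, rose by 2.10-fold, with clear differences between arrays. Its probe was printed in 10 spots per array, whereas the other 8 probes had 1 spot each, so the error within an array could be set against the error between arrays. On replicate 1 the 10 spots had log2 ratios of 1.17 to 1.35, on replicate 3 of 1.27 to 1.38 and on replicate 4 of 1.05 to 1.18. On replicate 2 they had 0.49 to 0.65, below every spot of the other arrays and above 0. The SD among spots of 1 array was 0.034 to 0.055, close to the median of 0.053 to 0.063 over the 316 tested probes with 10 spots. The SD between the 4 array means was 0.35, against a median of 0.14 for those 316 probes. The mean of 1.07 ± 0.35 (SD, n = 4) had a limma adjusted p of 0.00463 and a 95% interval of 1.66-fold to 2.64-fold. The spread between arrays thus exceeded that among spots, and the low value of replicate 2 was shared by its 10 spots.

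**Figure D2:**
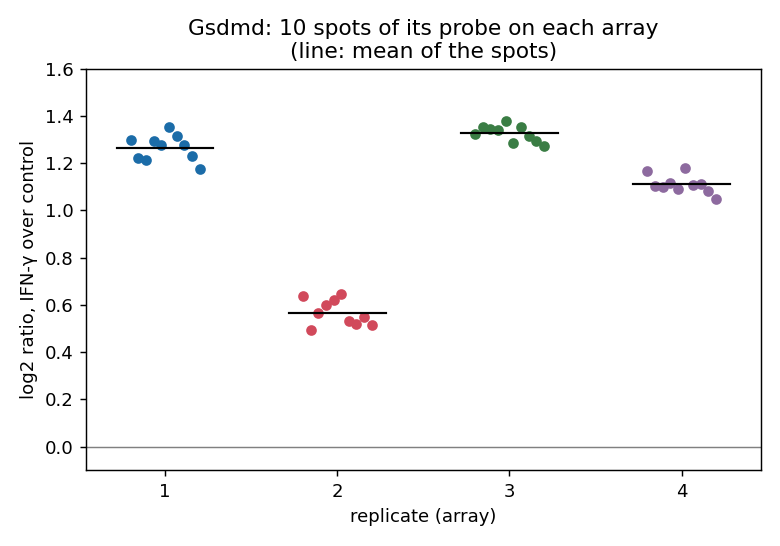
Log2 ratio of IFN-γ over control (vertical axis) for the 10 spots of the Gsdmd probe on each of 4 arrays (horizontal axis), with a line at their mean. The spots of replicate 2 lie between 0.49 and 0.65 and those of the other arrays between 1.05 and 1.38.

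The 3 genes of the death receptor route all rose, Fas by 1.77-fold, Casp8 by 2.06-fold and Bid by 2.11-fold. Fas, the receptor, had log2 ratios of 0.78, 0.81, 0.88 and 0.81 on replicates 1 to 4. These 4 values lay within 0.099 of each other, the narrowest range of the 9 probes, and replicate 2 did not stand apart. The mean was 0.82 ± 0.043 (SD, n = 4; limma adjusted p = 0.000805).

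Casp8, the initiator caspase recruited by Fas, had log2 ratios of 0.72, 1.19, 1.04 and 1.24. Its lowest array was replicate 1, in contrast to Casp1 and Gsdmd, whose lowest array was replicate 2. The mean was 1.05 ± 0.23 (SD, n = 4; limma adjusted p = 0.0022), a 2.06-fold rise. Its Cy3 medians were 355, 244.5, 187.5 and 305 and its Cy5 medians 2059, 1629.5, 2274.5 and 2999, with no overlap between channels.

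Bid, the BCL2 family protein that caspase-8 cuts to engage mitochondria, had log2 ratios of 1.06, 0.94, 1.16 and 1.15. The array values spanned 0.22, and replicate 2 was the lowest. The mean of 1.08 ± 0.10 (SD, n = 4) had the smallest adjusted p of the 9 probes, 0.00048 by limma, with a 95% interval of 1.88-fold to 2.36-fold.

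Mlkl, the necroptosis effector, had log2 ratios of 0.89, 0.93, 1.00 and 0.93 on replicates 1 to 4. As with Fas, the arrays were close together and replicate 2 lay inside the range of the others. The mean was 0.94 ± 0.045 (SD, n = 4; limma adjusted p = 0.000486), with a 95% interval of 1.73-fold to 2.11-fold. Its Cy3 medians were 637.5, 401, 412 and 435 and its Cy5 medians 4271, 2304, 5315 and 3490.

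**Figure D3:**
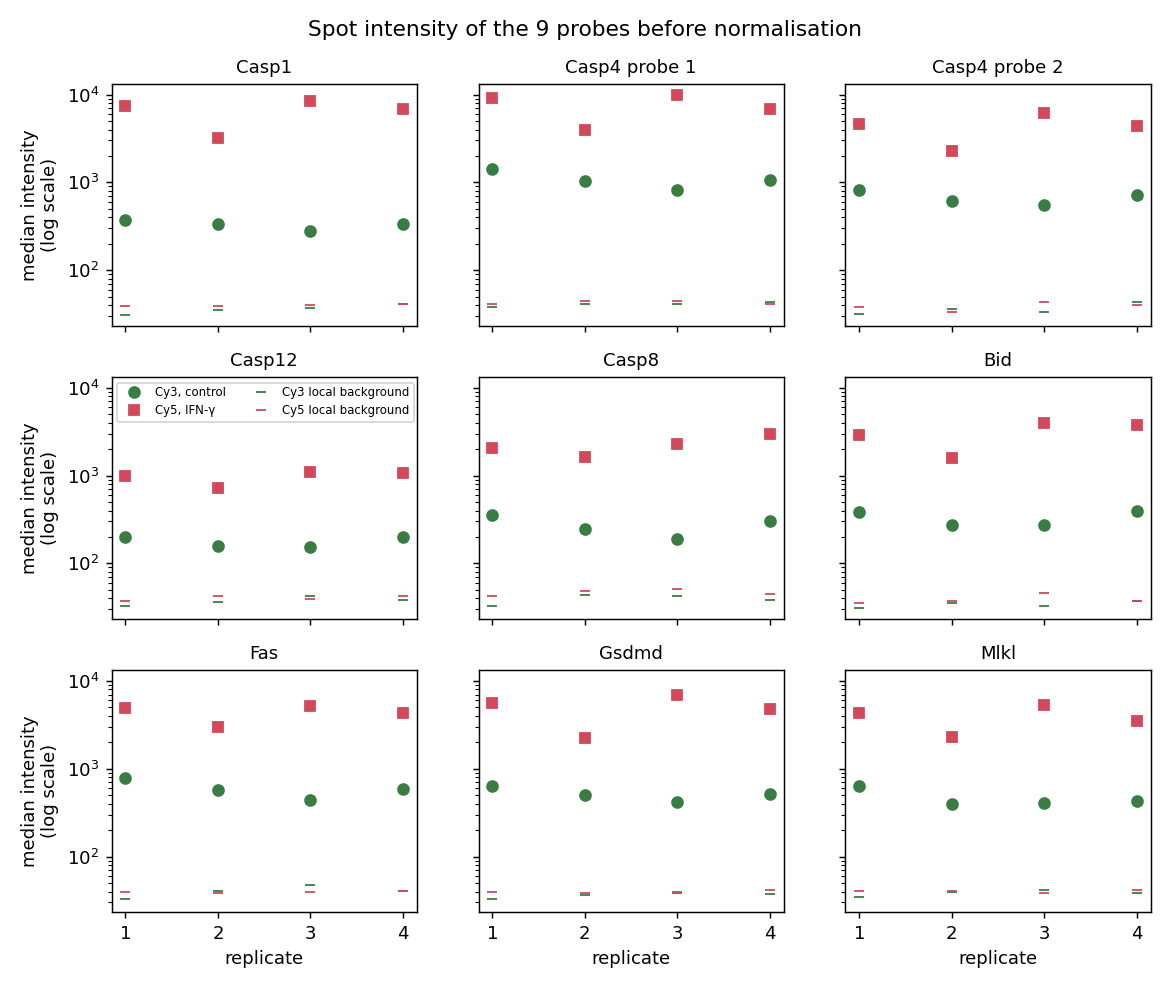
Median spot intensity before normalisation (vertical axis, log scale) on each of 4 arrays (horizontal axis) for the 9 probes, with control RNA in Cy3, treated RNA in Cy5 and the local background of each channel as dashes. Both channels lie above background in every panel, and the vertical gap between channels also contains the overall brightness of Cy5.

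All 9 probes were well above background in both channels on 4 of 4 arrays, and no spot of them was saturated, so no ratio is a bound. The genes therefore had measurable RNA in untreated differentiating C2C12 cells. Cy5 was brighter than Cy3 over the tested probes in general, by a median log2 ratio of 1.10 to 2.08 per array before normalisation, so the unnormalised gap between channels overstates each rise.

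Ordered by the mean ratio of the brightest probe, the genes ran Casp1, Bid, Gsdmd, Casp8, Mlkl, Fas, Casp4 and Casp12. Neighbouring genes were compared within arrays by a two-sided exact sign-flip permutation test over 7 pairs, in which 4 arrays allow no p below 0.125. Casp1 exceeded Bid by 1.04 ± 0.28 (SD) on 4 of 4 arrays (exact p = 0.125, Benjamini-Hochberg adjusted 0.438). Mlkl exceeded Fas by 0.115 ± 0.0067 on 4 of 4 arrays, with the same exact p and adjusted p. The other 5 pairs differed by 0.0083 to 0.17, less than the SD of the difference, and changed order between arrays. Replicate 2 gave the lowest ratio of 4 of the 8 genes, Casp1, Casp4, Bid and Gsdmd, and replicate 1 that of 3, Casp8, Fas and Mlkl.

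For each of the 8 genes the tested gene outside the group with the most similar ratios was found as the smallest root mean square difference over the 4 arrays, on the log2 scale. It was H2-Q10 for Casp1, at 0.16, and Casp1 had 10 genes within 0.25. It was Igfbp3 for Gsdmd, at 0.082, with 40 genes within 0.25, and Arglu1 for Casp8, at 0.079, with 67. This likeness of Arglu1 is that of its brightest probe, with a ratio of 1.11, and the mean of its probes was 0.38. The nearest genes of Bid, Mlkl, Fas, Casp4 and Casp12 were Ddx23, Svep1, Acsl5, Gnptab and Bag4, at 0.060, 0.040, 0.045, 0.049 and 0.015, and 104 to 1257 genes lay within 0.25 of these 5.

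The direction of all 9 probes was the same under every normalisation tried, whereas the sizes were not. Median centring of each array over all probes, without loess, put the median of tested probes at 0.54 and Casp1 at 3.12, Gsdmd at 2.08, Bid at 2.04, Casp8 at 1.95, Mlkl at 1.93, Fas at 1.83 and Casp12 at 1.31. Casp4 then had 1.69 and 1.58. Median centring over the tested probes, with a median of 0.029, put Casp1 at 2.61, Fas at 1.32 and Casp12 at 0.80. With the log ratio of Feature Extraction, the scanner software, Casp1 had 2.27, Mlkl 0.96 and Casp12 0.71. Each of the 9 probes lay above the median of tested probes in all of these settings and passed the limma test in each of them. The share of called probes that were higher was 56.8% under loess, 73.9% under median centring over all probes and 48.8% over the tested probes.

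**Figure D4:**
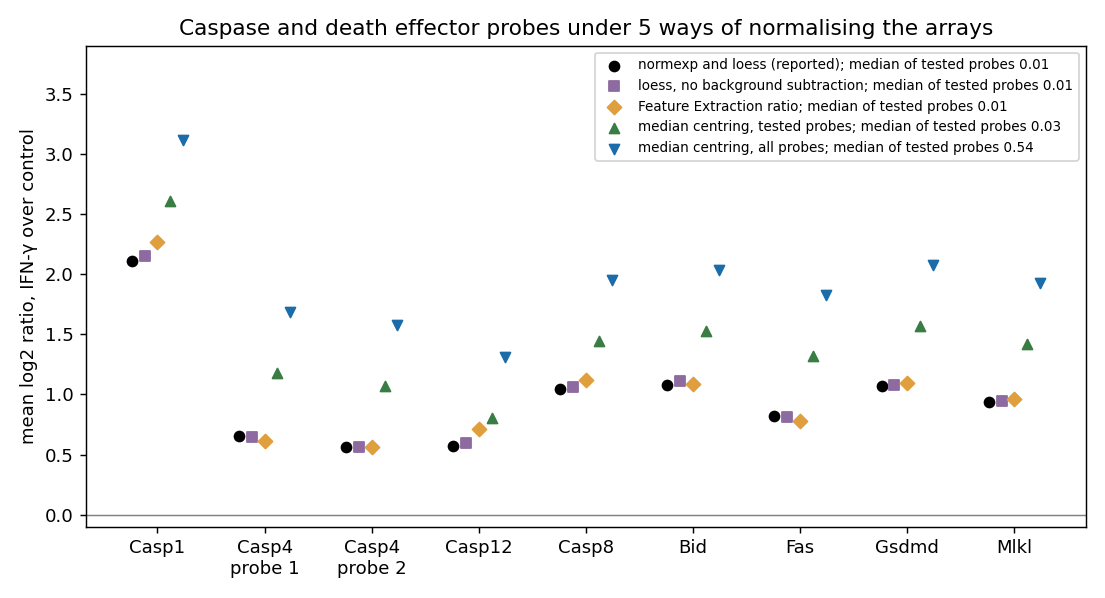
Mean log2 ratio of IFN-γ over control over 4 arrays (vertical axis) for the 9 probes (horizontal axis) under 5 ways of normalising, with the median of all tested probes under each in the legend. Both kinds of median centring give larger ratios than loess for all 9 probes, for Casp1 up to 3.12 against 2.11.

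Under loess, the other genes of cell death did not move as a block with these 8. In 5 lists of cell death genes, which hold 89 genes together, 80 were tested, counted by their brightest tested probe. Of the 72 tested genes outside the 8, 12 rose and 13 fell, 47 missed the threshold and the median log2 ratio was 0.047 against 0.026 for all 15673 tested genes. The shares were 16.7% higher and 18.1% lower, against 18.8% higher and 12.9% lower for all tested genes. With the 8 included, 20 of 80 rose and 13 fell. The count of falls was 6 without replicate 1, 18 without replicate 2, 6 without replicate 3 and 5 without replicate 4. Over all tested probes the falls in these settings were 1951, 5546, 1151 and 1265. Under median centring over all probes 63 of the 80 were called higher and 4 lower. Of all 28921 tested probes, 58.1% were then higher and 5939 were lower. With centring over the tested probes 49 of the 80 were called higher and 16 lower, against 36.2% of all 28921 tested probes higher and 10981 lower. The 80 are genes counted by their brightest probe, whereas these last shares and counts are of probes.

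Among 19 tested genes of inflammasomes and pyroptosis, 6 rose and 4 fell, 9 missed the threshold and the list median was 0.038, and 4 of the 6 were Casp1, Casp4, Casp12 and Gsdmd. As shares, 31.6% were higher and 21.1% lower, against 18.8% and 12.9% of all tested genes. Naip2, an inflammasome receptor for proteins of bacterial secretion systems, rose by 0.66 ± 0.19 (limma adjusted p = 0.00542). Il18, whose product caspase-1 matures, rose by 0.59 ± 0.18 (limma adjusted p = 0.00639). Card6 had −0.54 ± 0.36 and was called lower (limma adjusted p = 0.036), but not without replicate 1, 3 or 4 (0.08, 0.129 and 0.117) nor by the methods' t-test (0.0519). It had 0.44 under median centring over all probes, and −0.069 without passing over the tested probes (0.678). Naip5 had −0.42 ± 0.39 and did not pass. Without replicate 2 it had −0.61 and passed (limma adjusted p = 0.000863). Under median centring over all probes it had 0.66 and was called higher (limma adjusted p = 0.00191). Over the tested probes it had 0.15 without passing (0.354).

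Among 18 tested genes of death receptor signalling, 5 rose and 1 fell, 12 missed the threshold and the list median was 0.14, and 3 of the 5 were Fas, Casp8 and Bid. Of the list 27.8% were higher and 5.56% lower, against 18.8% and 12.9% of all tested genes. Ripk1, the kinase that links death receptors to survival or necroptosis, rose by 0.76 ± 0.15 (limma adjusted p = 0.00251). Tnfsf10, the death ligand TRAIL, lacked a control signal well above background on all 4 arrays and entered the test through the treated channel only. Its place among the 5 (limma adjusted p = 0.0291) is open to that selection. The bound of at least 1.37-fold holds under loess only. This call was lost without replicate 1, 3 or 4 (0.0646, 0.118 and 0.0802). With Feature Extraction's ratio Tnfsf10 had 2.26, and under median centring over all probes −0.029. Over the tested probes Tnfsf10 had −0.54 and was called lower (limma adjusted p = 0.0137). Its receptor gene Tnfrsf10b had −0.36 ± 0.24 and was called lower (limma adjusted p = 0.0442), but not without replicate 1, 3 or 4 (0.0509, 0.106 and 0.166), nor by the methods' t-test (0.0842), with Feature Extraction's ratio (0.0831) or with the authors' value table (0.0832). It had 0.66 under median centring over all probes and 0.15 over the tested probes. Tnfrsf1a, the main receptor of tumour necrosis factor, had 0.41 ± 0.39, with 0.16 on its second probe, and did not pass under loess. With the mean of its probes it had 0.28 and passed (limma adjusted p = 0.0352). It also passed under median centring over all probes, at 1.46, and over the tested probes, at 0.95.

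Among 11 tested genes of necroptosis, 5 rose and 3 fell, 3 missed the threshold and the list median was 0.016. That is 45.5% higher and 27.3% lower, against 18.8% and 12.9% of all tested genes. Zbp1, a nucleic acid sensor that engages RIPK3, rose by 3.25 ± 0.26 (limma adjusted p = 4.13e-05), a larger ratio than the 2.11 of Casp1, and its second probe had 4.92. Ripk1, counted above, and Mlkl were also among the 5. Cyld, a deubiquitinase that acts on RIPK1, had −0.77 ± 0.33 and was called lower (limma adjusted p = 0.00995), but not without replicate 4, where it had −0.73 (0.0578), nor under median centring over all probes, where it had −0.28 (0.117), nor by the methods' t-test (0.112). Tab2 had 0.016 ± 0.095 and did not pass under loess. It passed under median centring over all probes, at 1.04, and over the tested probes, at 0.53.

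Among 17 tested genes of the BCL2 family, 2 rose and 3 fell, 12 missed the threshold and the list median was −0.065. Here 11.8% were higher and 17.6% lower, against 18.8% and 12.9% of all tested genes. Bak1, the mitochondrial pore-forming protein that cut Bid can activate, rose by 0.74 ± 0.076 (limma adjusted p = 0.00147), and Bid was the other gene that rose. Bcl2l13 had −0.72 ± 0.12 (limma adjusted p = 0.00241) and Pmaip1, which encodes the BH3-only protein NOXA, had −0.43 ± 0.20 (0.0194), both called lower, and under median centring both had positive ratios, 0.28 and 0.61, where the median of tested probes was 0.54. With centring over the tested probes Bcl2l13 had −0.23 and did not pass (0.0687), and Pmaip1 had 0.10. The call of Pmaip1 was also lost without replicate 1 (0.078), without replicate 3 (0.0933) and by the methods' t-test (0.0921). The brightest probe of Bnip3l had −0.23 ± 0.19 and did not pass under loess. Without replicate 2 that probe had −0.32 and passed (limma adjusted p = 0.0114). The other probes of Bnip3l had 0.34 to 0.48, and each was called higher (limma adjusted p of 0.0118 to 0.0409).

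Among 19 tested genes of apoptotic caspases, the apoptosome and inhibitors of apoptosis, 6 rose and 2 fell, 11 missed the threshold and the list median was 0.17. In this list 31.6% were higher and 10.5% lower, against 18.8% and 12.9% of all tested genes. Apaf1, the scaffold of the apoptosome, rose by 0.62 ± 0.092 (limma adjusted p = 0.00269). Casp6, an executioner caspase, had 0.86, 0.020, 0.91 and 0.89 on replicates 1 to 4 and was called higher (limma adjusted p = 0.0301), but not without replicate 1, 3 or 4 (0.11, 0.128 and 0.126). Cycs, which encodes cytochrome c, had 0.20 ± 0.20 and did not pass under loess. Without replicate 2 it had 0.29 and passed (limma adjusted p = 0.0212). It also passed under median centring over all probes, at 1.26, and over the tested probes, at 0.75. With the mean of its probes it had 0.068 and did not pass.

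**Figure D5:**
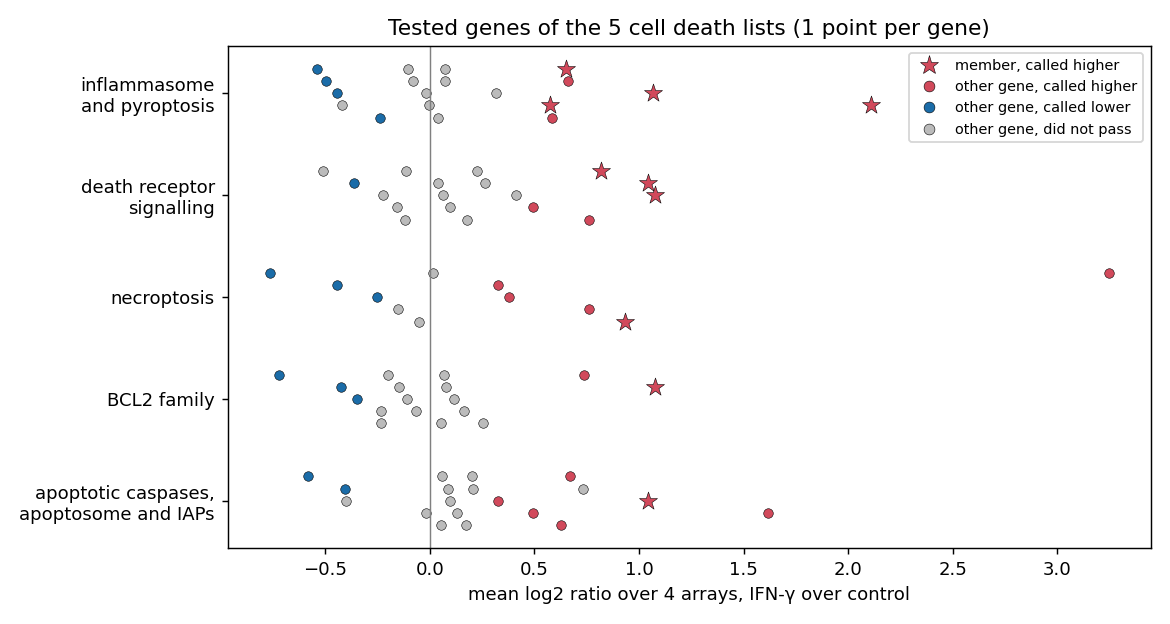
Mean log2 ratio of IFN-γ over control over 4 arrays (horizontal axis) for each tested gene of the 5 cell death lists (vertical axis), with stars for the 8 caspase and effector genes and colours for the limma call; genes in more than 1 list are drawn in each. Zbp1 lies farthest from 0, at 3.25, and the genes other than the 8 lie on both sides of 0.

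The cells carried the markers of their label. The marker counts below stand beside 18.8% of all tested genes called higher and 12.9% called lower. All 10 skeletal myoblast and myotube markers were well above background in both channels on all arrays; 1 of them, Myf5, rose and 5 fell, and their summed processed intensity was 281000 to 398000 in control and 202000 to 299000 in treated channels. Of 10 macrophage markers, whose cells are rich in inflammatory caspases, 6 were tested, 1 rose, 1 fell and 4 did not pass. Of these 6, 5 were well above background in both channels on all arrays, namely Adgre1, Csf1r, Itgam, Cd14 and Fcgr1. Cd14 rose by 0.59 ± 0.15 (limma adjusted p = 0.00503). Csf1r had −0.40 ± 0.037 and was called lower (limma adjusted p = 0.00632), with 0.030 and −0.061 on its other probes. Lyz2, Mrc1 and Tyrobp did not pass the filter on dim probes, Cd68 had no named probe, and the leukocyte gene Ptprc was well above background in Cy3 on 1 array of 4, with a ratio of 0.011 ± 0.099. Their summed processed intensity was 52700 to 64600 in control and 43500 to 65100 in treated channels, of which 97.3% to 97.7% in control was the Itgam probe. Of 7 tested fibroblast markers, 4 rose and 3 did not pass, with sums of 98300 to 176000 in control and 147000 to 213000 in treated channels, and the part of this shift in the caspase and effector ratios was not tested. Of 4 tested endothelial markers, 1 fell and 3 did not pass, with sums of 3660 to 4550 in control and 1790 to 2860 in treated channels. In bulk RNA, a change in the share of cells of a type and a change in RNA per cell cannot be told apart.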

How the data were processed

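Expression was measured on 4 two-colour Agilent arrays, each with RNA of IFN-γ-treated cells in Cy5 and control RNA in Cy3, from 8 µg of total RNA per the labels. Spot intensities and local backgrounds (medians), processed intensities and log10 ratios are the authors' deposited scanner output, whose software is named Agilent Feature Extraction 10.7.3.1 in the headers and in the submitters' processing notes. The authors' deposited value table is in log2 units: over tested probes it equalled the scanner log10 ratio turned to log2, within 0.001, for 99.87% to 99.99% of probes, with slopes of 3.32, so it gives Cy5 over Cy3. The medians of its columns ranged from −0.124 to −0.105, and any further centring by the authors is not given in the sources used here.

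Median intensities were corrected with normexp (offset 50) and log2 ratios were normalised by loess within each array, with control spots and outlier-flagged spots at weight 0, in limma 3.58.1 under R 4.3.3. Spots of 1 probe were averaged after leaving out flagged spots. Accessions were matched to RefSeq, which named 26055 of 39429 probes. Probes entered the test if 1 channel, the same throughout, was well above background on 3 or more arrays. Mean log2 ratios were tested against 0 with lmFit and eBayes, two-sided, with no covariates and Benjamini-Hochberg adjustment over all 28921 tested probes at 0.05. Genes were counted by their brightest tested probe. The fit was tested on simulated data with known changes. The number of arrays limits the precision. A probe dim in the control channel on all arrays has a bound on its fold only, computed after loess and Aquantile normalisation and open to dye bias.

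The genes, lists and tests were chosen with earlier results of these data known. Besides every probe of the 8 genes, the text names, for each list, up to 3 called genes with the largest change and the brightest gene that did not pass, interferon response genes (Irf1, Gbp2 and Psmb9), and the gene nearest to each of the 8. Some results that this rule selects are not reported here. The neighbours on chromosome 9 and the marker genes named were chosen after their values were seen. The array design uses another genome build than the promoter table, so positions are given for the promoter windows only. Alternatives were other normalisations and filters, the authors' value table, 1 value per gene, the methods' t-test and leaving out each array.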

Additional observations from a re-analysis of the deposited data

Results flagged for a closer look

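In 32 probes of the named genes, the highest or lowest of the 4 arrays was set against the others by Dixon's test, which chance passes in about 1 group of 20, and 2 passed. Casp6 had a log2 ratio of 0.020 on replicate 2, against 0.86 to 0.91 on the other 3 arrays. Bak1 had 0.63 on replicate 3, against 0.77 to 0.78 on the other 3 arrays. None of the 9 probes of the caspases and death effectors passed this test.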

How the results depend on the processing

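Every alternative left all 9 probes higher, and each probe that an alternative could test was called, except the second Casp4 probe without replicate 3; without 1 array at a time the number called was 8 to 9. Over all tested probes, 4778 were called higher and 3633 lower. These counts were 16793 and 5939 under median centring, and 10477 and 10981 when it used the tested probes only. With 1 probe per gene they were 3111 and 2173 genes, and with probes averaged per gene 3169 and 2092, fewer features being tested. The methods' t-test called 2365 probes lower and 3948 higher, and at the authors' fold of 2 it called 418 higher and 312 lower unadjusted, and 411 and 241 after Benjamini-Hochberg adjustment, with 4 of the 9 probes at both. Without 1 array at a time, 1913 to 6331 probes were called higher and 1151 to 5546 lower. Of the cell death genes, 63 were called higher and 4 lower under median centring, 49 higher when it used the tested probes only, and 5 lower by the methods' t-test; without 1 array at a time 15 to 26 were higher and 5 to 18 lower. The cause of these shifts was not tested. Signs turned under median centring for Card6 (0.44), Naip5 (0.66), Tnfsf10 (−0.029), Tnfrsf10b (0.66), Bcl2l13 (0.28), Pmaip1 (0.61) and Bnip3l (0.82), and over the tested probes only for Naip5 (0.15), Tnfsf10 (−0.54), Tnfrsf10b (0.15), Pmaip1 (0.10) and Bnip3l (0.31). Bnip3l had 0.24 with the mean of its probes, and Tab2 had −0.043 with Feature Extraction's ratio and with the authors' table, and −0.026 to 0.051 without 1 array at a time (negative without replicate 3). No paired analysis was possible because the 4 samples form 1 group and each array already sets a treated against a control channel. All arrays lay on 1 slide with 1 dye orientation, so neither could be a term.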
